A study of Mus musculus with 10 samples.

Results

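The genes described here are 10 markers of adipose progenitors, the stromal cells of fat from which new adipocytes arise: Pdgfra, Pdgfrb, Dpp4, Pi16, Ly6a, Cd34, Icam1, F3, Cd55 and Wnt2. They were taken by gene name, but the 10 genes were chosen with earlier results of these data known. All 10 had a row among the 51826 genes listed, of which 33120 have an exon length. Their expression was measured by RNA-seq of whole inguinal white adipose tissue (iWAT), a subcutaneous fat pad, from wild-type C57BL/6 male mice, with 1 library per mouse. The F1 groups were 3 offspring of fathers fed control diet (CD) and 3 offspring of fathers fed low-protein diet (LPD), called pLPD offspring, all killed at 5 weeks of age. The F1 mice themselves, like their mothers, received CD. The F0 groups were 2 males fed CD and 2 males fed LPD from weaning, at 10 to 12 weeks of age. Generation, age and the set of libraries coincide, so these cannot be told apart in a comparison of F1 with F0.

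As background, adipose progenitors lie in the stroma around vessels and in the connective tissue sheets of the fat pad, and they carry the PDGF receptors on their surface. In subcutaneous fat of mice, single-cell work has described a Dpp4+ interstitial population, which also carries Pi16, Cd55 and Wnt2 and gives rise to Icam1+ committed preadipocytes, and an F3+ (CD142+) population that can restrain adipogenesis. Ly6a (Sca-1) and Cd34 mark progenitors more broadly but are also carried by endothelial cells, and Pdgfrb is shared with pericytes. In RNA from whole tissue, a lower share of a cell type and less RNA of a gene per cell cannot be told apart.

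The promoters of 8 of the 10 genes were found in RefSeq (GRCm38.p6), each as 300 bases from 250 before the RefSeq start to 50 after it. Pdgfrb and Ly6a were not matched. For some genes, Wnt2 and Icam1 among them, this start differs from that of the gene spans given below. The promoters of 4 genes are shown 5′ to 3′ because these genes mark the extremes of the data below: Wnt2 and Pi16 varied most between mice, and Icam1 and F3 had the smallest differences between the paternal diets. Capitals mark each match on either strand to 5 short motifs, which do not overlap each other in these 4 windows. The TATA motif was searched as TATAAA and the GC box as the letters GGGCGG. The other motifs were CCAAT, the AP-1 motif written as TGANTCA, and a loose NF-kappaB-like motif written as GGNNNTTCC. The Wnt2 window lies on the minus strand at chr6:18030396-18030695 and the Pi16 window on the plus strand at chr17:29318632-29318931. The Icam1 window is chr9:21015690-21015989 and the F3 window chr3:121723287-121723586, both on the plus strand.
Wnt2: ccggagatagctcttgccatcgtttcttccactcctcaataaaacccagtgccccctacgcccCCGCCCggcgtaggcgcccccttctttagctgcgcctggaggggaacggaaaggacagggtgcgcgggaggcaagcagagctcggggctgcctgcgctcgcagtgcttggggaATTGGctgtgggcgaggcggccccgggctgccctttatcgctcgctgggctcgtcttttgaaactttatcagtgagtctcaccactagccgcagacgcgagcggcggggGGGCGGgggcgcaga
Pi16: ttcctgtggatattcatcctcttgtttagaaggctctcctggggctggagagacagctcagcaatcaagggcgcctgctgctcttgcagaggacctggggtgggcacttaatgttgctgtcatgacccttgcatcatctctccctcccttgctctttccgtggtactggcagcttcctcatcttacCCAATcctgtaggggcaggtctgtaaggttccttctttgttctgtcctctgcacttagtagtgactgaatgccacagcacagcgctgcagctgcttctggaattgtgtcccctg
Icam1: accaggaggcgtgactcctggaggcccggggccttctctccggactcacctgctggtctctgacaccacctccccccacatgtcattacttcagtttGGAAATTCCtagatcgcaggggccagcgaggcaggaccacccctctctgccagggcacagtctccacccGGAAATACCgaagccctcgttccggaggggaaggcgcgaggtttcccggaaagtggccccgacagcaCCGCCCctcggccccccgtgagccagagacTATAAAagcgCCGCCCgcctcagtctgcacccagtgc
F3: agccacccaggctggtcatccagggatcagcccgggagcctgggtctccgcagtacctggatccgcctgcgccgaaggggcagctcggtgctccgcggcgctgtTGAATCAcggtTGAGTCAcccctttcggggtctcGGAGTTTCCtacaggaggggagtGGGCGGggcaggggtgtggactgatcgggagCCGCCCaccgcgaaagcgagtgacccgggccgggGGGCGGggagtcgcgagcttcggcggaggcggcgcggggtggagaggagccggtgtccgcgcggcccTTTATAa

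The CCAAT box was found in Wnt2 and Pi16 alone among the 8 promoters, and in 37.4% of all 32851 promoters of this length. The NF-kappaB-like site was found in Icam1, F3 and Cd55 (18.5% of all promoters), and the AP-1 site in F3 only (7.81%). The GC box was present in Wnt2, Icam1, F3 and Cd55 (35.7%), and TATAAA in Dpp4, Icam1 and F3 (13.6%). The GC content of these windows ranged from 45.3% in Dpp4 to 70.3% in F3, against a median of 52.7% over all promoters. None of the 5 motifs was found in the windows of Pdgfra and Cd34. These matches describe letters only and were not tested for binding.

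The genes lie apart in the genome (mm10). Wnt2 spans chr6:17988940-18030585 and Dpp4 chr2:62330073-62412231, both on the minus strand, and Pi16 chr17:29318877-29329413 on the plus strand. On chromosome 1, Cd34 spans chr1:194938819-194961279 on the plus strand and Cd55 chr1:130439027-130462744 on the minus strand. Pdgfra spans chr5:75152292-75198215, Icam1 chr9:21015985-21028817 and F3 chr3:121723537-121735048, all on the plus strand, and Ly6a chr15:74994877-74998031 on the minus strand. Introns held from 2.11% of the reads of Pi16 to 61.8% of those of Dpp4.

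The 10 genes had between 16 and 2491 exon reads per mouse. Total exon reads per library ranged from 6351075 to 10044546. The least taken here as detection, 3 reads, corresponds to 0.299 to 0.472 CPM (counts scaled to equal library totals), which accounts for counting error alone. The libraries of pLPD offspring stood apart from the other groups. Introns held 40.7% to 48.4% of the reads on protein-coding genes in pLPD offspring and 36.0% to 38.0% in the other 3 groups. Mitochondrial rRNA held 13.5% to 18.2% of reads on genes in pLPD offspring and 9.29% to 12.4% in the other mice. The first pLPD mouse was the most extreme, with 48.4% intron reads and 18.2% mitochondrial rRNA.

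Compared per exon length, as reads scaled to exon length and library total (RPKM), the 10 genes spanned a wide range of levels. In the offspring of CD fathers, Ly6a, a GPI-anchored surface protein, had the highest RPKM (45.1 ± 7.26, SD, n = 3), followed by Pi16, a secreted peptidase inhibitor-like protein (27.9 ± 5.17), and Cd34, a sialomucin (13.2 ± 1.22). Cd55, which protects cells from complement, stood at 10.4 ± 1.36 RPKM and overlapped Cd34 in its range over mice. The PDGF receptors followed, Pdgfrb at 7.69 ± 0.753 and Pdgfra at 6.17 ± 0.476 RPKM. Pdgfra, Dpp4 (5.81 ± 0.955), F3 (5.78 ± 1.18) and Icam1 (4.86 ± 0.330) overlapped each with the next in this order. Wnt2, a secreted Wnt ligand, was the lowest at 1.83 ± 0.171 RPKM and lay below the other 9 genes in every mouse of each group. Ly6a and Pi16 held the first 2 ranks in all 4 groups, although their ranges overlapped in pLPD offspring and in CD-fed F0 mice. Cd55 ranked above Cd34 in pLPD offspring (10.8 and 8.98 RPKM) and in both F0 groups, the reverse of the order in the offspring of CD fathers. In pLPD offspring every pair of neighbours in the order overlapped, except Pdgfrb with F3 and Dpp4 with Wnt2.

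**Figure D1:**
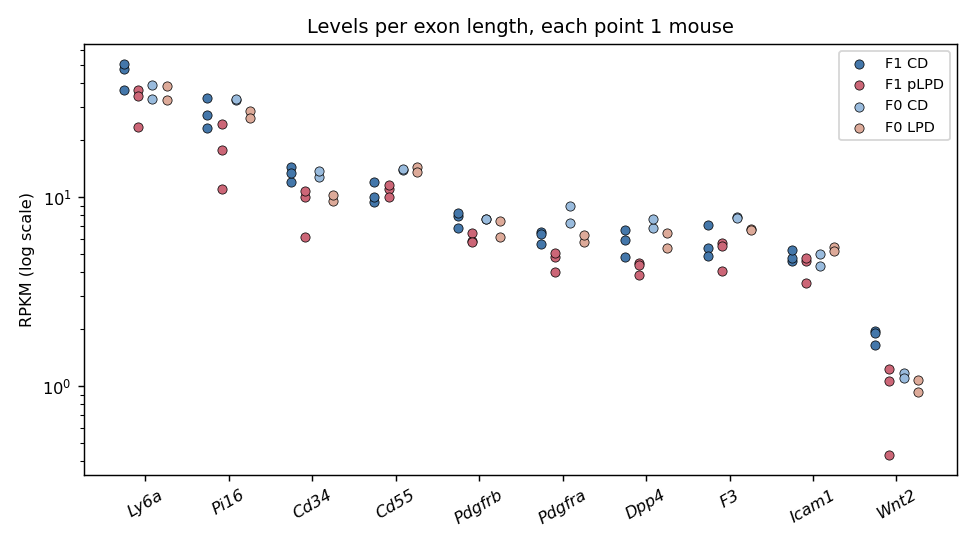
RPKM of the 10 genes on a log scale, each point 1 mouse, coloured by group and ordered by the mean in the offspring of CD fathers. Ly6a and Pi16 lie at the top in all groups and Wnt2 lies apart at the bottom, near 1 to 2 RPKM and at 0.430 in the first pLPD mouse.

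Spread over the 10 mice differed among the genes. Between the highest and the lowest mouse, Wnt2 differed 3.73-fold in CPM, Pi16 2.41-fold and Cd34 1.91-fold, and in each of these 3 the lowest mouse was the first pLPD mouse. Icam1, an adhesion receptor for leukocyte integrins, varied least (1.31-fold), next to Pdgfrb (1.41-fold) and Cd55 (1.43-fold). The first pLPD mouse was the lowest of the 6 F1 mice for 6 of the 10 genes and the highest for 1, Cd55.

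**Figure D2:**
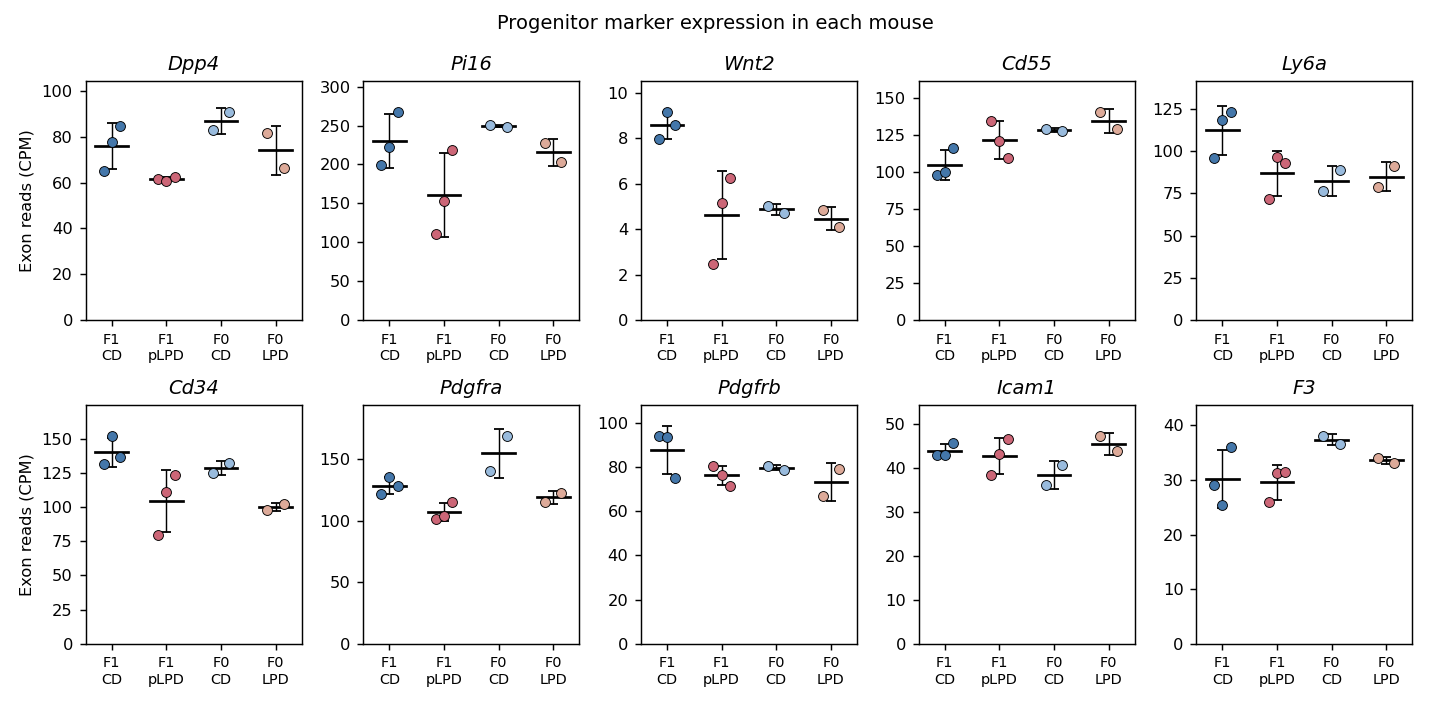
Exon reads in CPM for each gene, each point 1 mouse, with the group mean as a wide bar and the SD as an error bar; every axis starts at 0. In F1, all pLPD points lie below all CD points for Dpp4, Wnt2, Cd34 and Pdgfra, while those of Icam1 and F3 overlap.

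The first question was whether the diet of the father was accompanied by a difference in the F1 offspring. By the quasi-likelihood test of edgeR with adjustment over all genes tested, none of the 10 genes passed an adjusted p of 0.05, against 1.17% of the 14049 genes tested, and DESeq2 also called none. At an unadjusted p under 0.05, 6 of the 10 were lower in pLPD offspring (Cd34, Dpp4, Ly6a, Pdgfra, Pi16 and Wnt2) and none was higher, against 8.76% of all genes lower and 6.57% higher. Every pLPD mouse lay below every mouse of the CD group for 4 genes (Cd34, Dpp4, Pdgfra and Wnt2), against 10.9% of all genes. The log2 fold change was below 0 for 9 of the 10 genes and for 48.6% of all genes, with a median of -0.27 over the 10 genes and 0.01 over all genes.

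Among the markers of the interstitial population, Wnt2 differed most. It had 7.96, 9.14 and 8.60 CPM in the offspring of CD fathers and 2.45, 5.15 and 6.23 CPM in pLPD offspring. The groups did not overlap, and the first pLPD mouse was far below the others, on 16 exon reads against 38 to 79 in the other F1 mice. The log2 fold change was -0.88 ± 0.30 (SE, n = 3 and 3) with an edgeR adjusted p of 0.184. Dpp4, a cell surface dipeptidyl peptidase, had 65.2, 77.9 and 84.7 CPM in the offspring of CD fathers and 61.7, 60.9 and 62.5 CPM in pLPD offspring. The pLPD mice were nearly equal and all below the CD range, with a log2 fold change of -0.29 ± 0.10 (edgeR adjusted p = 0.212). Pi16 had 199.0, 223.1 and 267.2 CPM against 110.7, 152.7 and 218.4 CPM. The third pLPD mouse lay inside the CD range, and the log2 fold change was -0.51 ± 0.20 (edgeR adjusted p = 0.244). Cd55 was the only one of the 10 with a higher mean in pLPD offspring. It had 98.1, 99.99 and 116.5 CPM against 134.6, 120.8 and 109.4 CPM, overlapping groups with a log2 fold change of 0.22 ± 0.10 (edgeR adjusted p = 0.330).

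Of the broader markers, Cd34 had 131.4, 152.0 and 136.8 CPM in the offspring of CD fathers and 79.5, 110.9 and 123.3 CPM in pLPD offspring. The groups did not overlap, and the log2 fold change was -0.41 ± 0.14 (edgeR adjusted p = 0.183). Only 48.9% of the exon reads of Cd34 matched a unique place, so its level is less certain than that of the other genes, which had 88.03% to 100% unique reads. Ly6a had 95.9, 118.4 and 123.0 CPM against 71.5, 96.3 and 92.9 CPM, which overlapped through 1 mouse of each group (log2 fold change -0.36 ± 0.13, edgeR adjusted p = 0.209). Pdgfra, the receptor used to define adipose progenitors in sorting and lineage tracing, had 121.4, 135.2 and 127.8 CPM against 101.2, 104.1 and 114.9 CPM. All pLPD mice were below all CD mice, with a log2 fold change of -0.26 ± 0.09 (edgeR adjusted p = 0.185). Pdgfrb had 94.2, 93.6 and 75.1 CPM against 80.5, 76.6 and 71.7 CPM, overlapping groups with a log2 fold change of -0.19 ± 0.11 (edgeR adjusted p = 0.424).

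The markers of the later or restraining populations had the values closest to equality. Icam1 had 43.0, 43.1 and 45.7 CPM in the offspring of CD fathers and 38.4, 43.3 and 46.6 CPM in pLPD offspring, and the log2 fold change was -0.03 ± 0.10 (edgeR adjusted p = 0.927). F3, tissue factor and the initiator of the extrinsic clotting cascade, had 29.1, 25.5 and 36.0 CPM against 25.9, 31.3 and 31.5 CPM, with a log2 fold change of -0.02 ± 0.14 (edgeR adjusted p = 0.970). For both genes the groups overlapped. An exact two-sided permutation test per gene has a smallest possible p of 0.1 with 3 mice against 3, reached by Cd34, Dpp4, Pdgfra and Wnt2.

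The composition of the libraries differed with the paternal diet in F1. The median deviation of the 10 genes from their F1 means, on the log2 scale, was 0.02, 0.20 and 0.23 in the offspring of CD fathers and -0.20, -0.10 and 0.00 in pLPD offspring, lowest in the first pLPD mouse. With a covariate for the share of reads on exons, which nearly coincides with the paternal diet (49.2% to 51.2% in the CD group and 39.3% to 45.4% in pLPD offspring), the fold changes of Pi16, Ly6a, Cd34, Icam1, F3 and Wnt2 turned positive, with edgeR adjusted p-values of 0.757 to 0.899. In that fit Dpp4 stayed at -0.22, Pdgfra was -0.09, Cd55 was 0.0006 and Pdgfrb moved further from 0, from -0.19 to -0.31 (edgeR adjusted p = 0.729). Paternal diet and exon share cannot be told apart here. In each fit without 1 mouse, all 6 genes that were lower at the unadjusted threshold kept a negative fold change. Without the first pLPD mouse in particular, the log2 fold change was -0.58 for Wnt2, -0.30 for Pi16, -0.25 for Cd34, -0.24 for Ly6a, -0.29 for Dpp4 and -0.22 for Pdgfra.

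In F0, where the mice themselves were fed the diets, none of the 10 genes passed the adjusted threshold by edgeR or by DESeq2, against 2.5% of the 14581 genes tested. At an unadjusted p under 0.05, Cd34 and Pdgfra were lower in LPD-fed mice (8.2% of all genes were lower) and Icam1 was higher (7.53% were higher). The fold change was below 0 for 7 of the 10 genes and for 49.9% of all genes, with a median on the log2 scale of -0.14 over the 10 genes and 0.00 over all genes. The groups did not overlap for 5 genes with lower values in LPD-fed mice, Cd34, Dpp4, F3, Pdgfra and Pi16, against 23.6% of all genes, and for 1 with higher values, Icam1, against 22.8%.

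Pdgfra had 140.4 and 168.8 CPM in CD-fed mice and 115.3 and 122.5 CPM in LPD-fed mice, with a log2 fold change of -0.38 ± 0.11 (SE, n = 2 and 2, edgeR adjusted p = 0.115). Cd34 had 124.8 and 131.9 CPM against 97.8 and 101.9 CPM, a log2 fold change of -0.36 ± 0.09 (edgeR adjusted p = 0.0691). For both genes, all LPD-fed mice were below all CD-fed mice. Both passed the threshold with no filter on low counts (edgeR adjusted p = 0.00970 for Pdgfra and 0.0148 for Cd34), and Cd34 passed it on uniquely matching reads (edgeR adjusted p = 0.0251). Calls rose over all genes with no filter, to 1343 of 22064 genes, against 364 of 14581 in the main fit. Icam1 had 36.3 and 40.8 CPM in CD-fed mice and 47.4 and 43.9 CPM in LPD-fed mice, a log2 fold change of 0.24 ± 0.10 (edgeR adjusted p = 0.287).

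The interstitial markers were close to equal or lower in LPD-fed mice. Pi16 had 250.8 and 248.8 CPM against 228.1 and 203.6 CPM (log2 fold change -0.21 ± 0.10, edgeR adjusted p = 0.352). Dpp4 had 82.7 and 90.7 CPM against 81.5 and 66.6 CPM (log2 fold change -0.23 ± 0.11, edgeR adjusted p = 0.386). Neither gene overlapped between the diets, although for Dpp4 the nearest mice differed by little. Wnt2 had 5.04 and 4.70 CPM against 4.83 and 4.09 CPM, overlapping groups with a log2 fold change of -0.12 ± 0.24 (edgeR adjusted p = 0.882). Cd55 had 129.2 and 127.6 CPM against 140.5 and 129.1 CPM, which also overlapped (log2 fold change 0.07 ± 0.09, edgeR adjusted p = 0.781).

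For the remaining genes, Ly6a had 76.2 and 88.7 CPM in CD-fed and 78.7 and 91.1 CPM in LPD-fed mice, and Pdgfrb had 80.6 and 78.9 CPM against 67.0 and 79.3 CPM. F3 had 38.1 and 36.7 CPM against 34.04 and 33.1 CPM. The edgeR adjusted p-values of these genes were 0.913 for Ly6a, 0.625 for Pdgfrb and 0.513 for F3. With 2 mice against 2 an exact permutation test cannot go below 0.333.

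Whether the diet difference itself differed between the generations was tested as an interaction in a fit of all 10 libraries. None of the 10 genes passed the adjusted threshold by edgeR or DESeq2, against 1.25% of the 15111 genes tested, and none had an unadjusted p under 0.05, against 12.5%. The largest interactions were those of Wnt2 (-0.77 ± 0.43 on the log2 scale, edgeR adjusted p = 0.494), Ly6a (-0.41 ± 0.20, edgeR adjusted p = 0.419), Pi16 (-0.31 ± 0.29, edgeR adjusted p = 0.734) and Icam1 (-0.28 ± 0.15, edgeR adjusted p = 0.465), where a negative value means a lower fold change in F1 than in F0. With standard errors of 0.14 to 0.43, interactions of the size observed could not be separated from 0. Single mice moved 3 of these values by over 1.5 times. Without the first pLPD mouse the interaction of Pi16 was -0.10 and that of Wnt2 -0.47, without the third pLPD mouse that of Pi16 was -0.59, and without the third CD mouse it was -0.18. Without the first CD-fed F0 mouse the interaction of Icam1 was -0.19. On junction reads the interactions of Wnt2, Ly6a and Icam1 were -0.05, -0.17 and -0.72, and on all reads of the gene that of Icam1 was -0.18.

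The levels of mice on CD were then compared between the younger F1 and the older F0 mice. Ly6a was higher in the F1 mice, at 112.4 ± 14.5 CPM (SD, n = 3) against 82.5 ± 8.82 CPM (SD, n = 2), a log2 difference of 0.45 ± 0.14 (SE, edgeR adjusted p = 0.0408). It was the only one of the 10 past the threshold, against 18.9% of all genes in either direction and 10.1% in this direction. The call was lost on all reads of the gene (edgeR adjusted p = 0.0891), on junction reads (0.175), on RPKM with limma (0.313) and without each of the mice in turn, except the first F1 mouse. Wnt2 had 8.57 ± 0.592 CPM in F1 and 4.87 ± 0.242 CPM in F0, with no overlap and a log2 difference of 0.82 ± 0.29 (edgeR adjusted p = 0.0678). Cd55 (104.9 ± 10.1 against 128.4 ± 1.14 CPM), Pdgfra (128.1 ± 6.88 against 154.6 ± 20.1 CPM) and F3 (30.2 ± 5.36 against 37.4 ± 0.988 CPM) had lower values in all F1 mice, as 24.7% of all genes did, and Icam1, Ly6a and Wnt2 had higher values in all F1 mice, as 25.2% did. The edgeR adjusted p-values of Cd55, Pdgfra and F3 were 0.0670, 0.0702 and 0.136. Skeletal muscle markers differed widely between these sets, with a summed level of 90.9 to 175.7 CPM over 8 genes in the F1 and 1306 to 1993 CPM in the F0 mice on CD, and all 8 were lower in F1 past the threshold, against 8.78% of all genes. Of the 10 genes of endothelial cells, which also carry Ly6a, 8 had positive values and 5 were higher in F1 past the threshold (median 0.57, sums of 714.9 to 977.1 CPM in the F1 and 586.9 to 656.0 CPM in the F0 mice). All 10 adipocyte genes had negative values and 5 were lower past the threshold (median -0.52, sums of 12180 to 16150 and 19000 to 20040 CPM). The part of these cells in the results above was not tested.

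Intron reads, which come largely from unspliced transcripts, gave a second readout of the diets. In F1, none of the 10 genes passed the adjusted threshold with edgeR on intron reads, against 0.424% of 13456 genes tested, and at an unadjusted p under 0.05 only Wnt2 was lower, against 8.17% of genes. Wnt2 had 26, 34 and 28 intron reads in the CD group and 6, 11 and 7 in pLPD offspring. The groups were well separated on these few reads, and the log2 fold change was -1.74 ± 0.35 (edgeR adjusted p = 0.0588). Intron and exon fold changes had the same sign for 9 of the 10 genes in F1, the exception being Icam1, near 0 in both. For Dpp4, whose introns held 61.8% of its reads, the intron fold change was -0.02 ± 0.09 against -0.29 ± 0.10 on exons. Cd55 had positive values on both, 0.19 ± 0.11 on introns. Antisense genes overlap Dpp4, Cd34, Icam1 and Cd55, and their reads cannot be told apart from intron reads here. The antisense gene at Cd55 had 155 to 312 reads per mouse, beside 594 to 1200 intron reads of Cd55. The one at Cd34 had 70 to 160, beside 80 to 179 intron reads of Cd34, and the one at Dpp4 had 28 to 89, beside 667 to 1345.

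In F0, none of the 10 genes passed on intron reads with edgeR, against 3.48% of 14334 genes. The unadjusted p was under 0.05 for Pdgfra, lower in LPD-fed mice as on exons (log2 fold change -0.35 ± 0.11, edgeR adjusted p = 0.143; 7.76% of genes were lower), and for F3 and Cd55, which were higher (7.04% were higher). F3 had 58 and 99 intron reads in CD-fed mice and 139 and 110 in LPD-fed mice, a log2 fold change of 0.76 ± 0.21 (edgeR adjusted p = 0.102). On exons F3 had the opposite sign, -0.15 ± 0.10, and its exon values did not overlap either. The signs on exons and introns agreed for 6 of the 10 genes in F0, and differed for Pdgfrb, Dpp4, Icam1 and F3.

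**Figure D3:**
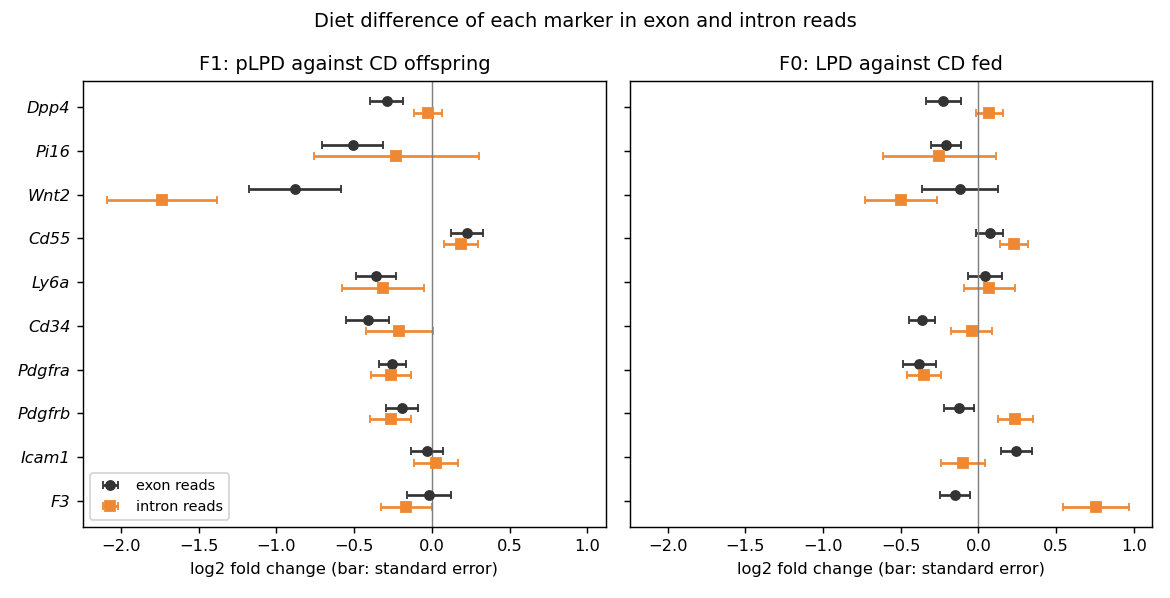
Log2 fold change of each gene between the diets in F1 (left) and F0 (right), on exon reads (circles) and intron reads (squares), with the standard error. Wnt2 in F1 lies farthest to the left on both readouts (-0.88 and -1.74), and F3 in F0 has opposite signs on exons (-0.15) and introns (0.76).

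Other genes of the same populations were examined as lists written by hand. Of 18 tested genes of Dpp4+ interstitial progenitors besides the 10 markers, 17 had a negative fold change in F1, against 48.6% of all genes. In pLPD offspring 4 were down-regulated past an edgeR adjusted p of 0.05, where 1.02% of all genes were down-regulated. The median log2 fold change was -0.54, against 0.01 over all genes. Scara5, a ferritin scavenger receptor, fell from 136.7 ± 9.15 to 79.5 ± 13.9 CPM (log2 fold change -0.77, edgeR adjusted p = 0.0133), and Cd248 (endosialin), a stromal surface glycoprotein, from 112.9 ± 12.8 to 65.2 ± 13.7 CPM (-0.79, edgeR adjusted p = 0.0277). Creb5, a transcription factor, fell from 38.7 ± 1.92 to 23.4 ± 2.99 CPM (-0.71, edgeR adjusted p = 0.0216). The fourth was Smpd3, a neutral sphingomyelinase (-0.71, edgeR adjusted p = 0.0430), of whose exon reads 19.7% were unique. On unique reads its log2 fold change was -0.35 and the call was lost (edgeR adjusted p = 0.454). The count of 4 became 8 with DESeq2 and with the replicate block, 7 in one fit of all 4 groups and 10 with no filter on low counts. Over all genes, calls in either direction also rose, from 164 to 375 with DESeq2 and 260 with the replicate block. They were 339 in one fit of all 4 groups and 798 with no filter, of 22256 genes tested. The count of the list became 1 on all reads of the gene (Anxa3), 1 on RPKM with limma (Scara5) and 0 with the exon share as a covariate. Calls over all genes were 119 on all reads of the gene, 117 on RPKM and 15 with the exon share. With that covariate the median of the list was -0.15 and 13 of the 18 genes were negative. The count was 1 (Scara5) without the first pLPD mouse, 6 without the third, and 0 without the first or the second CD mouse or the second pLPD mouse.

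In F0, 17 of the 19 tested genes of this list were negative, against 49.9% of all genes. The median was -0.36 against 0.00 over all genes, and 2 genes of the list were down-regulated in LPD-fed mice past the threshold, where 1.32% of all genes were. These were Igfbp6, which binds insulin-like growth factors (from 77.8 and 79.9 to 45.3 and 54.3 CPM, log2 fold change -0.66, edgeR adjusted p = 0.0190), and Smpd3 (-0.69, edgeR adjusted p = 0.0299). On unique reads Smpd3 was -0.57 and lost the call (edgeR adjusted p = 0.109). The count was 1 (Igfbp6) without either CD-fed mouse, 3 without the first LPD-fed mouse and 0 without the second. It was 0 in one fit of all 4 groups and on junction reads, 1 on RPKM, 7 with no filter and 8 with the replicate block. Over all genes, 364 were called in the main fit in either direction, 1343 with no filter and 1391 with the replicate block. Calls over all genes were 175 in one fit of all 4 groups, 164 on junction reads and 82 on RPKM.

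The lists for the other populations were described alike. Of 9 tested genes of Icam1+ preadipocytes, none passed the threshold with edgeR in F1 (1 lower at an unadjusted p under 0.05) or in F0, with medians of -0.11 and -0.27. In F0, 4 were lower and 2 higher (Col4a1 and Col4a2, at 0.34 and 0.32) at an unadjusted p under 0.05, where 8.2% of all genes were lower and 7.53% higher, and DESeq2 called 1 lower. The most abundant were Col4a1, a basement membrane collagen, and Apoe, the apolipoprotein, with means of 918 to 1872 and 1265 to 1750 CPM by group. Of the genes of F3+ stromal cells, none of 10 passed in F1 with edgeR (4 lower at an unadjusted p under 0.05, against 8.76% of all genes). Of all genes, 2.5% passed in either direction in F0. In F0, Adam12, a metalloprotease, was up-regulated in LPD-fed mice from 31.1 ± 15.2 to 78.3 ± 13.4 CPM (log2 fold change 1.34, edgeR adjusted p = 0.0373) and Gdf10, a TGF-beta family ligand, was down-regulated from 41.8 ± 2.17 to 29.0 ± 0.780 CPM (-0.53, edgeR adjusted p = 0.0345), of 11 tested. The call of Adam12 was lost without the second LPD-fed mouse, that of Gdf10 without any 1 of the 4 mice, and both with DESeq2, on RPKM with limma and on all reads of the gene, where the log2 fold change of Adam12 was 0.61 (edgeR adjusted p = 0.15).

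Among 16 genes of fibroblasts in general, 2 were down-regulated in F1 past the threshold, where 1.02% of all genes were. These were Fbln1, an extracellular matrix protein (20.3 ± 1.19 to 12.0 ± 1.46 CPM, log2 fold change -0.74, edgeR adjusted p = 0.0410), and Serpinf1, the secreted factor PEDF (144.3 ± 11.3 to 97.2 ± 15.7 CPM, -0.56, edgeR adjusted p = 0.0490). In F0, Dcn, a matrix proteoglycan (-0.62, edgeR adjusted p = 0.0439), Clec3b, tetranectin (-0.55, edgeR adjusted p = 0.0243), and Zfp521, a zinc finger protein that restrains adipogenesis (-0.46, edgeR adjusted p = 0.0490), were down-regulated. Among all genes, 1.32% were lower past the threshold in F0. The medians of this list were -0.14 in F1 and -0.27 in F0. At an unadjusted p under 0.05, 7 of the 16 were lower and 1 higher in F1, where 8.76% of all genes were lower and 6.57% higher. The F0 counts were 7 lower and 2 higher, where 8.2% and 7.53% of all genes were. Both F1 calls were lost without the first pLPD mouse, among others, and with the exon share as a covariate, where the median of the list was 0.15. On RPKM with limma, on junction reads and in one fit of all 4 groups, Clec3b, Dcn and Zfp521 lost their F0 calls. In F0, the call of Clec3b was lost without the first CD-fed or the second LPD-fed mouse and that of Dcn without either CD-fed or the second LPD-fed mouse. The call of Zfp521 was lost without any 1 of the 4 mice, with DESeq2, on all reads of the gene, where its log2 fold change was -0.28, and on junction reads, where it was -0.19.

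**Figure D4:**
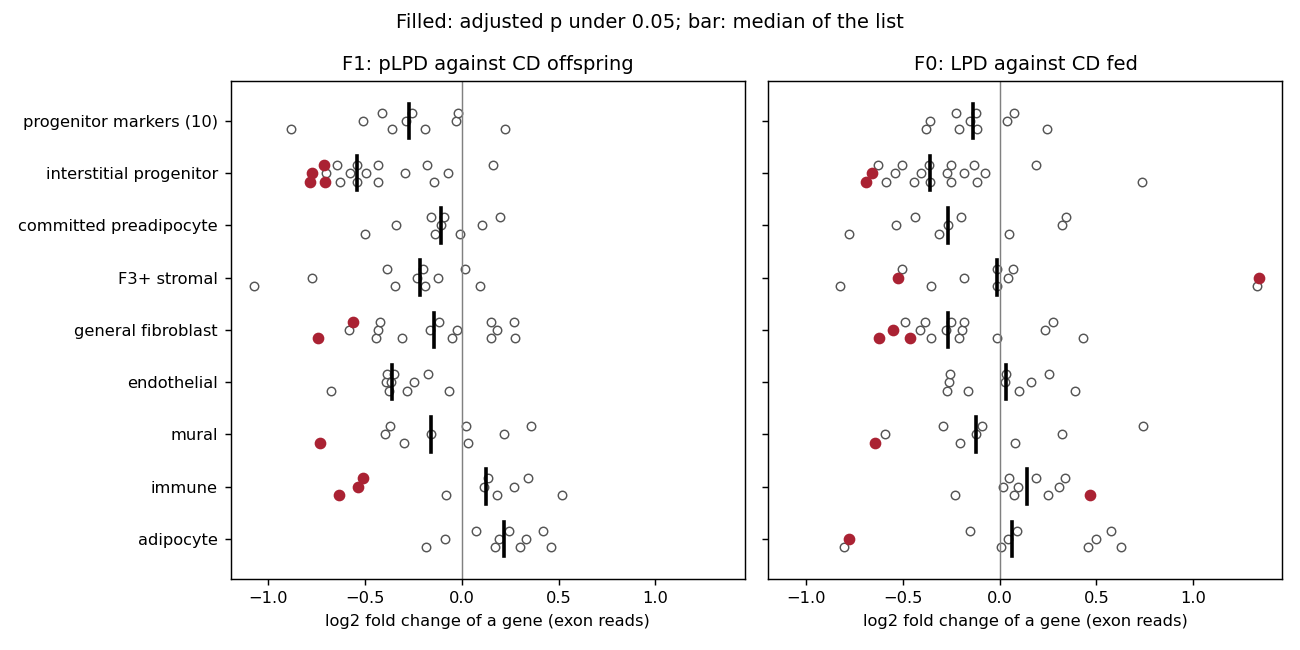
Log2 fold change of each tested gene by list in F1 (left) and F0 (right), on exon reads; filled points passed an adjusted p of 0.05 and the bar is the median of the list. Of the lists drawn, which leave out epithelial, mesothelial and skeletal muscle genes, that of interstitial progenitors has the lowest median in both panels (-0.54 and -0.36), and none of the 10 markers is filled.

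Ligands and partners of the markers were described in the same way. Of 20 genes with a row, 18 were tested in each generation. In F1, 1 was lower past the threshold (1.02% of all genes were). At an unadjusted p under 0.05, 4 were lower and 2 higher, where 8.76% of all genes were lower and 6.57% higher. In F0, 2 were lower past the threshold (1.32% of all genes were). At an unadjusted p under 0.05, 2 were lower and 4 higher, where 8.2% of all genes were lower and 7.53% higher. The medians were 0.06 and 0.12. Pdgfb, the ligand of Pdgfrb that vessels secrete, was down-regulated in pLPD offspring from 33.01 ± 1.16 to 22.4 ± 0.757 CPM (log2 fold change -0.55, edgeR adjusted p = 0.0399), while Pdgfrb itself did not pass. In F0, Pdgfc, a ligand of Pdgfra, was down-regulated in LPD-fed mice from 28.8 ± 0.301 to 18.0 ± 0.125 CPM (-0.68, edgeR adjusted p = 0.0243), and Cxcl12, a chemokine that Dpp4 can cleave, from 166.4 and 171.1 to 125.1 and 125.2 CPM (-0.43, edgeR adjusted p = 0.0401). The call of Pdgfb was lost in 5 of the 6 fits without 1 mouse, kept only without the third CD mouse. Those of Pdgfc and Cxcl12 were lost with DESeq2 and in 3 and 4 of the 4 fits without 1 mouse. No other gene of this list passed the threshold in these fits, among them the Wnt receptors Fzd1, Fzd2 and Fzd4, the F3 inhibitor Tfpi and the integrin Itgb2 that binds Icam1. In F1 the log2 fold change was -1.07 for Fzd2 (edgeR adjusted p = 0.113) and 0.45 for Fzd4 (edgeR adjusted p = 0.0913).

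The levels of markers of other cells were compared between the diets. Of all genes, 1.02% were lower past the threshold in F1. At an unadjusted p under 0.05, 8.76% were lower and 6.57% higher. In F1, all 10 endothelial genes had a negative fold change, with a median of -0.36 and none past the threshold by edgeR (4 at an unadjusted p under 0.05), and their sum was 714.9 to 977.1 CPM in the CD group and 615.6 to 775.5 CPM in pLPD offspring. Of 10 leukocyte genes, the macrophage genes Adgre1, Csf1r and Lyz2 were down-regulated (-0.64, -0.54 and -0.51), while 6 had positive fold changes, among them the T cell genes Cd3g and Cd3e (0.52 and 0.34, unadjusted p = 0.00170 and 0.0293 by edgeR) and Ptprc, which all leukocytes carry (0.27). The median of the list was 0.13, and the sum of the list overlapped between the groups (1281 to 1474 against 1118 to 1361 CPM). Of 9 mural genes, Acta2 was down-regulated (-0.74), 4 had positive fold changes and the median was -0.16. Of 10 adipocyte genes, 8 had positive fold changes and none passed with edgeR (2 at an unadjusted p under 0.05), with sums of 12180 to 16150 in the CD group and 14930 to 18650 CPM in pLPD offspring. Epithelial genes summed to 10.53 to 14.9 CPM in the CD group and 1.53 to 4.88 CPM in pLPD offspring, and mesothelial genes to 9.03 to 9.95 and 2.76 to 3.53 CPM, with Upk1b at 0 in all mice. Krt8, Krt18 and Krt19 passed the threshold, but entered the test through the CD group alone. Their means were 2.997, 3.36 and 5.42 CPM in the CD group and 0.181, 0.104 and 0.494 CPM in pLPD offspring. In pLPD offspring the means of Krt8 and Krt18 lay below the level of 3 reads and that of Krt19 near it. None of these genes was tested where 10 counts were required in every sample. The 14 called genes named from the lists in F1 include Krt8, Krt18 and Krt19. Of the 14, 11 to 13 lost the call without the first or the second mouse of either group, and all 14 with the exon share as a covariate. All kept a negative fold change in these fits. The part of these cells in the values of Cd34, Ly6a and Pdgfrb, which some of them also express, was not tested.

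In F0, the sums of the endothelial genes overlapped between the diets (586.9 to 656.0 in CD-fed and 599.3 to 653.3 CPM in LPD-fed mice, median log2 fold change 0.03). Skeletal muscle genes summed to 1306 to 1993 CPM in CD-fed and 756.0 to 1033 CPM in LPD-fed mice. All 8 had negative fold changes and Acta1, Tnnt3 and Pvalb were past the threshold, where 1.32% of all genes were lower. Of 9 mural genes, Myh11 was down-regulated (-0.65) and 3 had positive fold changes, among them Mcam (0.74, edgeR adjusted p = 0.0787), with a median of -0.12. Of 10 adipocyte genes, Retn was down-regulated (-0.78), and Cfd, at -0.81, fell just short of the threshold (edgeR adjusted p = 0.0503). Of the list, 7 genes had positive fold changes, with a median of 0.07. At an unadjusted p under 0.05, 2 were lower (Retn and Cfd), where 8.2% of all genes were. The 4 higher were Lep, Plin4, Acvr1c and Cidec (0.63, 0.58, 0.50 and 0.45), where 7.53% of all genes were. Of 10 leukocyte genes, Ms4a1 was up-regulated (0.46) and 9 had positive fold changes, with a median of 0.14. Only 29.5% of the exon reads of Ms4a1 were unique, and 33.4% of those of Acta1. The call of Ms4a1 was lost on unique reads (0.40, edgeR adjusted p = 0.151) and with DESeq2 (DESeq2 adjusted p = 0.0779). Each of these 6 calls was lost in at least 1 fit without a mouse. The part of these genes in the differences of the 10 markers was not tested.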

How the data were processed

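The authors mapped reads of whole iWAT with CLC Genomics Workbench, using the mm10 genome. The deposited counts are whole reads per gene on exons, on introns, across exon junctions and over the gene, total and uniquely matching, without normalization; the strand setting of the counting is not given in the sources used here. The deposited RPKM values were made by the authors from total exon reads and were used for levels between genes only, and for 1 alternative test with 0.1 added. The deposited TPM values were not used.

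Total exon reads (6351075 to 10044546 per mouse) were tested in R 4.3.3 with edgeR 4.0.16 (filterByExpr, TMM, quasi-likelihood F test, two-sided, Benjamini-Hochberg over all genes tested, threshold 0.05), in F1 and F0 separately. The interaction and the CD mice of F1 and F0 were tested in a fit of all 10 libraries. Intron reads were fitted alike with their own factors. Standard errors were derived from the log2 fold change and F. Printed CPM values share one TMM scale over the 10 libraries, and exact permutation tests used log2 CPM with 0.5 added. The fits were tested on simulated data. Alternatives were DESeq2 1.42.0, its size factors in edgeR, no filter, at least 10 counts in every sample, unique reads, all gene reads, limma-trend (limma 3.58.1) on RPKM, a replicate block, all 4 groups in one fit, the exon share as a covariate and each mouse left out; junction reads were added after seeing the files.

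The study gives the F1 mice as 3 per group from different mothers; nothing else says how F0 mice were related, and p-values measure only the spread between these mice. The 10 genes and the lists were chosen with earlier results of these data known. All 10 markers are named, and from each list, per generation, up to 3 genes past the threshold with the largest fold change and a mean of at least 1 CPM, or else the 2 most abundant; other genes named, among them Aldh1a2 and Cfd, were chosen after their values were seen. Deviations of F1 mice with the same number correlated at 0.0389, -0.000158 and 0.00721, beside -0.0624 to 0.0562 for other pairs. The numbers were therefore not taken as pairs in F1. With 2 mice per group in F0, all correlations have the same size (0.0487 or -0.0487), so they cannot decide on pairing. No pairs were assumed there either. Itgam, a partner of Icam1, was not used here, and 1 further list of marker genes is not reported here. Antisense genes overlap Dpp4, Cd34, Icam1 and Cd55, with 0 to 31 exon reads and 0 to 312 reads in all per mouse.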

Additional observations from a re-analysis of the deposited data

Results flagged for a closer look

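For 6 genes of the lists, Adam12, Aldh1a2, Adgre1, Serpinf1, Retn and Cfd, the diet difference itself differed between F1 and F0. This was by the interaction term of edgeR in the fit of all 10 libraries. Of all 15111 genes tested 1.25% passed the threshold, and none of the 10 progenitor markers did. The diet is that of the father in F1 and that of the mouse itself in F0. Generation, age and the set of libraries coincide with this and cannot be told apart. The interaction is the log2 fold change in F1 minus that in F0. It was -1.33 for Adam12 (adjusted p = 0.0430), which was 127.7 ± 6.04 and 128.2 ± 8.33 CPM in the CD and pLPD offspring (SD, n = 3) and 31.1 ± 15.2 and 78.3 ± 13.4 CPM in the CD-fed and LPD-fed F0 mice (SD, n = 2). It was -0.70 for Adgre1 (edgeR adjusted p = 0.0354), at 35.1 ± 0.915 and 22.4 ± 0.714 CPM in F1 and 30.6 ± 1.41 and 31.6 ± 1.77 CPM in F0. It was -0.85 for Serpinf1 (edgeR adjusted p = 0.0484), at 144.3 ± 11.3 and 97.2 ± 15.7 CPM in F1 and 139.0 ± 14.6 and 168.4 ± 21.6 CPM in F0. It was 1.01 for Retn (edgeR adjusted p = 0.0454), at 530.9 ± 82.6 and 624.0 ± 106.6 CPM in F1 and 826.8 ± 120.2 and 481.4 ± 23.4 CPM in F0. It was 1.13 for Cfd (edgeR adjusted p = 0.0381), adipsin, at 5376 ± 895.2 and 6736 ± 1153 CPM in F1 and 7077 ± 486.1 and 4042 ± 308.0 CPM in F0. The fitted value for Aldh1a2, a retinaldehyde dehydrogenase, was -4.27 (edgeR adjusted p = 0.0201), on 1 to 18 exon reads per mouse. It had 1.24 ± 0.0957 and 0.148 ± 0.0110 CPM in F1, the latter below the level of 3 reads, and 0.741 ± 0.0596 and 1.88 ± 0.0140 CPM in F0, so this value gives no size of a fold change. Aldh1a2 entered the fit through the groups with its higher values. It was not tested in the fit of F1 alone, nor where 10 counts were required in every sample. All 6 calls were lost without the second CD-fed or LPD-fed F0 mouse and without the second pLPD mouse, and 5 without the first or the second CD offspring (Aldh1a2 kept its call). Without the first CD-fed mouse 5 were lost, without the first LPD-fed mouse 4 and without the third pLPD mouse 3. On RPKM with limma 5 were lost and on all reads of the gene 4, where the value of Adam12 was -0.62. The replicate block lost Adgre1 and Serpinf1, junction reads Adgre1 and Aldh1a2, and DESeq2 Adgre1. None changed direction in these fits. The groups of 2 and 3 mice are too small for a test of single outlying mice.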

How the results depend on the processing

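The count of markers past the threshold, 0 in both diet comparisons, moved with few settings. In F1 it became 4 lower with no filter on low counts (Cd34, Ly6a, Pi16 and Wnt2) and 1 with the replicate block (Pi16), and in F0 2 with no filter and 2 with the replicate block (Cd34 and Pdgfra each time) and 1 on unique reads (Cd34); without 1 mouse it was 0 to 0 in both. For F1 against F0 mice on CD, the count lower (0) became 1 with no filter, 1 on RPKM and 1 on junction reads (Cd55 each time) and 2 with the replicate block (F3 and Pdgfra), and 0 to 2 without 1 mouse; the count higher (1) became 2 with no filter and 2 on unique reads (Ly6a and Wnt2), 0 on all gene reads, RPKM and junction reads, and 0 to 1 without 1 mouse. On introns in F0, F3 passed with the replicate block (count 1) and without the second CD-fed mouse (0 to 1). On exon reads with no filter, calls over all genes rose as well, to 798 in F1 and 1343 in F0. With the replicate block they rose to 260 and 1391. The causes were not tested.

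Signs turned as follows. With the exon share as a covariate in F1, Pi16 was 0.28, Ly6a 0.14, Cd34 0.21, Icam1 0.21, F3 0.23 and Wnt2 0.32 on the log2 scale. On junction reads, F3 in F1 was 0.16, Ly6a in F0 -0.15, the interactions of Dpp4 and Cd34 0.0254 and 0.0086, and Pi16 in F1 against F0 0.10. On RPKM, Ly6a in F0 was -0.0143, and Pdgfrb and Cd34 in F1 against F0 were -0.0002 and -0.0051. On all gene reads F3 was 0.0697 in F0 and its interaction -0.12, on unique reads the interaction of Cd34 was 0.0807, and with the exon factors Dpp4 on introns in F1 was 0.0722. Without 1 mouse, fold changes ran in F1 from -0.0959 to 0.0437 for Icam1 and -0.13 to 0.13 for F3, in F0 from -0.068 to 0.16 for Ly6a, and interactions from -0.0244 to 0.26 for Pdgfra, -0.19 to 0.0511 for Pdgfrb, -0.21 to 0.0817 for Dpp4 and -0.19 to 0.11 for Cd34. On introns they ran in F1 from -0.0968 to 0.0237 for Dpp4, -0.71 to 0.25 for Pi16 and -0.0633 to 0.0932 for Icam1, and in F0 from -0.0226 to 0.16 for Dpp4, -0.74 to 0.54 for Pi16, -0.0391 to 0.19 for Ly6a and -0.11 to 0.025 for Cd34.

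On RPKM the median of all genes shifted to -0.15 in F1 and -0.12 in F1 against F0, and that of the 10 markers to -0.42 and -0.13. Over all genes, 164 were called in F1 (15 with the exon share to 798 with no filter), 364 in F0 (82 on RPKM to 1391 with the replicate block), 189 for the interaction (74 on RPKM to 890 with no filter) and 2857 for F1 against F0 (1466 on junction reads to 3415). On introns, 57 and 499 were called in F1 and F0, and 100 and 803 with the replicate block. In F0 the block leaves 1 residual degree of freedom. It changed no other call of a marker in the diet comparisons. Of the 15 called list genes named in F0, 14 lost the call without the second LPD-fed mouse and 8 with DESeq2. Of the same 15 genes, 13 lost the call on RPKM with limma, 12 in one fit of all 4 groups, 10 on junction reads and 9 on all gene reads. Wnt2, with 16 to 79 exon reads per mouse, is the marker most limited by depth.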
